A study of Mus musculus with 54 samples.

Results

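The 36 genes described here belong to the unfolded protein response of the endoplasmic reticulum (ER) and to the integrated stress response, and they were followed by RNA sequencing in mouse BMDMs, macrophages that are grown out of bone marrow with the cytokine M-CSF. The genes were taken by name, with earlier results of these data known. They are 36 of the 52636 gene identifiers that were counted, and all 36 passed the filter on low counts and were among the 14970 genes tested. By role, 11 are ER chaperones and their cofactors, 3 are protein disulfide isomerases, 4 act in ER-associated degradation, 3 are stress sensors, 5 are transcription factors or feedback regulators, 3 are stress-induced effectors, 5 are enzymes of amino acid and one-carbon metabolism and 2 are the subunits of an amino acid transporter. Cells from animals lacking N4bp1 (KO) or from wild-type animals (WT) were exposed for 2, 4, 6 or 8 h to R837 or to Pam3 or were left untreated, which gave 18 groups of 3 libraries and 54 libraries in all. N4BP1 is an RNA-binding protein that restrains inflammatory signalling. R837, or imiquimod, is a small-molecule agonist of the receptor TLR7, and Pam3 (Pam3CSK4) is a lipopeptide that activates TLR2 together with TLR1. All groups shared the culture in M-CSF at 50 ng/ml with replating on day 5 and 2 more days of culture, and the replicates are given in the labels as cultures of different mice. The labels give C57BL/6N for the wild-type animals, and the way N4bp1 was deleted, the age of the animals and the ligand doses are not stated in them.

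Proteins that enter the ER are folded there by chaperones and by enzymes that form disulfide bonds, and those that fail to fold are sent back to the cytosol for degradation. When unfolded protein accumulates, IRE1 (Ern1) splices the Xbp1 mRNA, ATF6 is cut to release a transcription factor, and PERK (Eif2ak3) phosphorylates the translation initiation factor eIF2. Phosphorylated eIF2, which other kinases also produce when amino acids are short, lowers general protein synthesis while it raises translation of the transcription factor ATF4, and this arm is called the integrated stress response. Toll-like receptors are known to engage parts of both pathways in macrophages. Gene counts do not separate spliced from unspliced Xbp1 mRNA and do not report the activity of a sensor protein, so all values below are transcript levels.

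Levels below are CPM, counts per 1 M counts of a library scaled with TMM factors, given for single libraries in the order of their replicate numbers, and changes are log2 ratios ± SE from the quasi-likelihood test of edgeR, adjusted over all genes tested by the Benjamini-Hochberg method and called at an adjusted p under 0.05. Library totals ran from 20.03 to 45.9 M counts. N4bp1 itself ran from 30.1 to 205 CPM in KO libraries and from 63.6 to 609 CPM in WT libraries, and every KO library lay below every WT library in 9 of 9 conditions. The 10 macrophage markers summed to 19037 to 27364 CPM in KO libraries and to 21335 to 30687 CPM in WT libraries. Y-linked transcripts were at most 0.208 CPM in KO libraries, while each of the 9 WT conditions held 1 library at 162 to 207 CPM, 1 at 57.3 to 77.7 CPM and 1 at or below 0.160 CPM. Igha, an immunoglobulin transcript, and Jchain are both known transcripts of plasma cells. They were at 25.2 to 89.9 CPM and 6.67 to 19.1 CPM in KO libraries, against 0.329 to 15.0 CPM and 0.0780 to 4.50 CPM in WT libraries. The 12 plasma cell markers together summed to 425 to 1899 CPM in KO libraries and to 355 to 2226 CPM in WT libraries. In KO libraries that sum was 425 to 451 CPM untreated and 1644 to 1899 CPM at 6 h of R837. In WT libraries it was 355 to 470 CPM and 1866 to 2226 CPM. The sum thus varied with the ligand, and its overlap does not show that plasma cell content was alike in the genotypes. For the Y-linked levels, the genotype comparisons were only repeated with WT libraries left out by that level, which also leaves fewer libraries. The comparisons within WT cells were also fitted with that level as a block. The part of Igha, Jchain and the plasma cell markers in the genotype comparisons was not tested. Every KO library lay above every WT library in Igha and in Jchain, so no choice of libraries matches the genotypes. The library of KO replicate 3 at 8 h of Pam3 detected 12263 genes, and the others detected 16097 to 18039. In bulk RNA, fewer cells of a type and less RNA per cell cannot be told apart.

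The promoter sequences that the ER-stress factors are known to read are shown first, because 6 of the 8 members that hold the first of them are chaperone genes. The ER stress response element, in letters CCAAT and CCACG with any 9 bases between them, was searched on both strands in the 250 bases upstream of RefSeq gene starts (GRCm38.p6). It was found in 8 of the 32 members with an entry in that table (25.0%), against 37 of all 32851 windows (0.113%). Here and for the other motifs, a member counts if any of its windows holds the letters, while the other share is of single windows. The 2 percentages are therefore not in the same unit. Capitals mark the element, read 5′ to 3′ on its own strand.
Hspa5 (chr2:34772020-34772048): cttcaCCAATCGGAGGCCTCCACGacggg
Hsp90b1, far site (chr10:86705633-86705661): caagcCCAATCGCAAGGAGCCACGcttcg
Hsp90b1, near site (chr10:86705528-86705556): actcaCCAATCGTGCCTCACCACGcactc
Calr (chr8:84847070-84847098): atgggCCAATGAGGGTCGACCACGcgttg
Canx (chr11:50325795-50325823): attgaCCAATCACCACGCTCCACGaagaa
Pdia6 (chr12:17266486-17266514): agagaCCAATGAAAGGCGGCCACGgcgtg
Creld2 (chr15:88819515-88819543): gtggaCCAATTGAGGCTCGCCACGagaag
Dnajc3 (chr14:118937822-118937850): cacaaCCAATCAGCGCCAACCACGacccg
Syvn1 (chr19:6046527-6046555): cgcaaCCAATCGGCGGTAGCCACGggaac
The sites lay on the same strand as the gene except in Calr, Creld2 and the near site of Hsp90b1. The core of the C/EBP-ATF response element that ATF4 is known to bind, TGATGNAA on both strands, was found in 3 members (9.38%), against 3.45% of all windows. It was not found in Gdf15, Mthfd2 or Ppp1r15a, whose largest changes in WT cells below exceed that of Asns. Whether the core goes with a change in level was not tested. The sites in Chac1, Asns and Herpud1 follow.
Chac1 (chr2:119351044-119351061, opposite strand to the gene): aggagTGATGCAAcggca
Asns (chr6:7693220-7693237, same strand): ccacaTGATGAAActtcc
Herpud1 (chr8:94386312-94386329, opposite strand to the gene): cgggcTGATGCAAcccgc
The core TGACGTGG of the unfolded protein response element was in none of the 32 members and in 0.563% of windows, which says only that these letters are not in this stretch. The NF-kB motif was found in 2 members, Creld2 and Edem1 (6.25%), against 3.9% of windows. Atf6, Hyou1, Manf and Slc7a5 have no entry in the table. A match to letters is a description and shows no binding.

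In untreated WT cells the members differed widely in level. Per kilobase of exon, Calr stood highest at 220.5 ± 8.10 CPM per kb (SD, n = 3) and Pdia3 followed at 157 ± 2.67 CPM per kb. Hsp90b1 at 122 ± 5.01, Atf4 at 121 ± 6.29 and Hspa5 at 119 ± 4.66 CPM per kb came next and did not differ beyond their spread. At the low end were Slc7a5 at 2.50 ± 0.417, Gdf15 at 1.02 ± 0.0917, Chac1 at 0.323 ± 0.193 and Phgdh at 0.239 ± 0.0913 CPM per kb. Phgdh stayed under 5 CPM in every group, with group means of 0.271 to 1.70 CPM, and Chac1 and Gdf15 rested on 9 to 28 and 59 to 78 counts per untreated WT library.

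From 4 h on, most members passed with either ligand in WT cells, and more of them rose than fell. Of the 36 members 16 passed at 2 h of R837, where 42% of all tested genes passed, 28 at 4 h (53.8% of all genes), 29 at 6 h (59.2%) and 26 at 8 h (57.3%). With Pam3 the counts were 19 at 2 h (41% of all genes), 23 at 4 h (49%), 27 at 6 h (53.5%) and 26 at 8 h (52.2%). Of those called, 12, 22, 22 and 21 rose at 2, 4, 6 and 8 h of R837, where 22.2%, 26.4%, 28.9% and 28.3% of all genes rose, and 4, 6, 7 and 5 fell, where 19.7%, 27.4%, 30.3% and 29.1% of all genes fell. With Pam3 15, 20, 20 and 18 rose, where 22.1%, 25.3%, 26.8% and 26.3% of all genes rose, and 4, 3, 7 and 8 fell, where 18.9%, 23.7%, 26.7% and 25.9% of all genes fell. The median log2 change of the members was 0.46 at 8 h of R837, against -0.06 over all genes, and 0.29 at 8 h of Pam3, against -0.03 over all genes. All of these comparisons use the same 3 untreated libraries. Across the 8 tests Atf4, Calr, Chac1, Herpud1, Hspa5, Manf, Pdia6, Psat1 and Slc7a5 rose in every one, Eif2ak3 fell in every one, and Dnajc3, Shmt2 and Trib3 passed in none. How many of all genes did so was not counted.

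**Figure D1:**
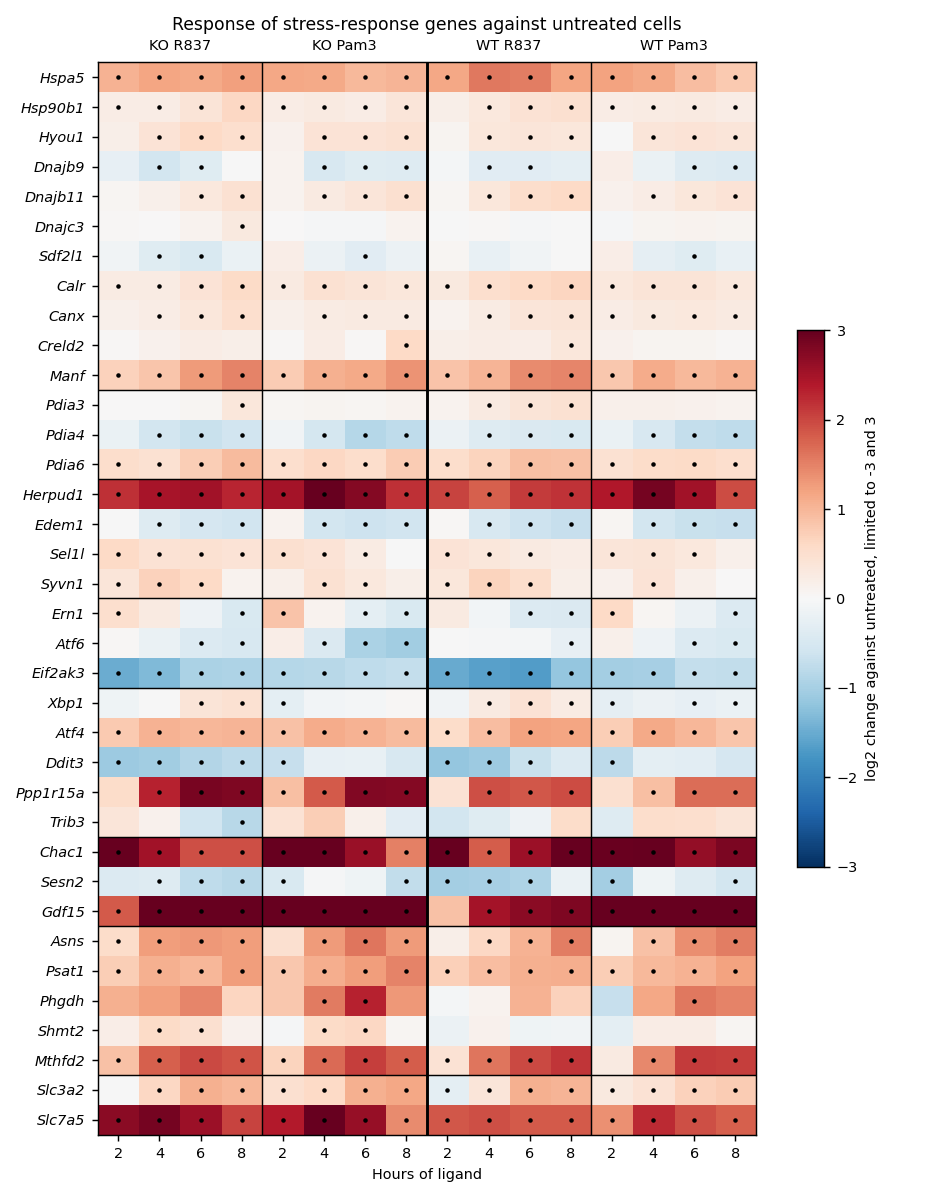
Heat map of the log2 change against untreated cells of the same genotype for the 36 members (rows, ordered by role) at 2, 4, 6 and 8 h of each ligand (columns), with KO panels left of WT panels; colour is the log2 change, limited to a size of 3 in either direction, and a dot marks a test that passed. Herpud1, Chac1 and Slc7a5 passed as increases and Eif2ak3 as a decrease in every column.

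Among the 11 chaperones and cofactors 8 rose and none fell at 8 h of R837 in WT cells, and 7 rose and 1 fell at 8 h of Pam3. Of all genes 28.3% rose and 29.1% fell at 8 h of R837, and 26.3% rose and 25.9% fell at 8 h of Pam3. These shares also stand beside the 8 h counts of the other role groups below. Hspa5, which encodes the main ER chaperone BiP, had 1406, 1336 and 1298 CPM in the WT libraries at 4 h of R837, against 468, 444 and 433 CPM in the untreated WT libraries. The groups were far apart, with a log2 change of 1.59 ± 0.08 (edgeR adjusted p = 1.4e-21). With Pam3 its increase was 1.20 at 2 h, 1.14 at 4 h, 0.92 at 6 h and 0.79 at 8 h on the log2 scale, so the level at 8 h was below that at 2 h (-0.40 ± 0.08, edgeR adjusted p = 3.42e-05). Manf, a small secreted ER protein that is induced by ER stress, had 80.1, 79.3 and 87.6 CPM at 8 h of R837 and 31.6, 28.5 and 28.7 CPM in untreated WT libraries (1.48 ± 0.11, edgeR adjusted p = 3.19e-16). Each treated library held more than any untreated one, and with Pam3 the change of Manf lay between 0.82 and 1.12 at the 4 times.

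The other chaperones moved less. Calr and Canx, the lectin chaperones of glycoproteins, changed by 0.65 and 0.39 on the log2 scale at 8 h of R837, Hsp90b1, the ER form of HSP90, by 0.47, Dnajb11, a cofactor of BiP, by 0.59, and Hyou1, which recharges BiP with nucleotide, by 0.35, and all 5 passed. Dnajb9, another BiP cofactor and a known IRE1 and XBP1 target, went the other way, with changes of -0.33 at both 4 and 6 h of R837 and of -0.38 and -0.41 at 6 and 8 h of Pam3. Sdf2l1, which works with the BiP cofactors, passed at 6 h of Pam3 alone (-0.36 ± 0.15, edgeR adjusted p = 0.0455). Creld2, an ER protein with isomerase activity, passed at 8 h of R837 alone (0.34 ± 0.15, edgeR adjusted p = 0.0474). Dnajc3, also called p58IPK, stayed between -0.04 and 0.09 in the 8 tests and passed in none. Of the 8 members with an ER stress response element, 6 rose at 8 h of R837 and 5 at 8 h of Pam3. In the same comparisons 21 and 18 of all 36 members rose, and 28.3% and 26.3% of all genes. Whether the element goes with a rise was not tested. Dnajc3 and Syvn1 did not pass at 8 h of either ligand.

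The 3 disulfide isomerases did not move as a group. Pdia6 had 183, 173 and 177 CPM at 6 h of R837 and 98.3, 96.7 and 92.3 CPM in untreated WT libraries (0.89 ± 0.08, edgeR adjusted p = 1.48e-13). Pdia4 had 39.1, 42.7 and 40.6 CPM at 8 h of Pam3, against 73.5, 68.9 and 66.1 CPM in untreated WT libraries (-0.77 ± 0.10, edgeR adjusted p = 4.62e-09). Neither pair of groups overlapped, and the 2 genes moved in opposite directions. Pdia3, the isomerase that partners with Calr and Canx, rose with R837 at 4, 6 and 8 h by 0.26 to 0.46 and had changes of 0.11 to 0.16 with Pam3, none of which passed.

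In ER-associated degradation, Herpud1 had the largest change of its role group. It encodes a membrane protein of the degradation complex and had 78.1, 70.0 and 67.1 CPM in the WT libraries at 4 h of R837, against 19.9, 21.5 and 20.7 CPM in the untreated ones (1.79 ± 0.11, edgeR adjusted p = 1.32e-18). With Pam3 it had 155, 156 and 146 CPM at that time (2.88 ± 0.11, edgeR adjusted p = 1.9e-25). Both ligands thus gave levels above every untreated library. Edem1, which marks misfolded glycoproteins for disposal, was at 390.1, 372 and 360 CPM at 2 h of Pam3, at 238, 239.6 and 255 CPM at 4 h and at 210.2, 230.3 and 224 CPM at 8 h, against 354, 363 and 363 CPM in untreated WT libraries. It passed at 4, 6 and 8 h but not at 2 h, and at 8 h the change was -0.70 ± 0.06 (edgeR adjusted p = 2.01e-13). Sel1l and Syvn1, the scaffold and the ubiquitin ligase of the main degradation complex, peaked early: Sel1l rose by 0.27 to 0.41 at 2, 4 and 6 h of either ligand, and Syvn1 rose by 0.66 at 4 h of R837 and changed by 0.18 at 8 h, which did not pass.

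All 3 sensor transcripts were below their untreated level at 8 h of both ligands. Eif2ak3 (PERK) had 14.7, 12.7 and 11.6 CPM at 6 h of R837 and 42.9, 42.3 and 38.6 CPM in untreated WT libraries (-1.67 ± 0.17, edgeR adjusted p = 1.94e-11). With Pam3 it had 23.2, 17.4 and 20.6 CPM at 2 h and 22.7, 26.3 and 25.5 CPM at 8 h, and every treated WT library lay below every untreated one. Ern1 (IRE1) had 137, 114 and 119 CPM at 2 h of Pam3, against 71.4, 87.7 and 84.2 CPM in untreated WT libraries (0.61 ± 0.13, edgeR adjusted p = 0.000121). It was at 64.0, 53.0 and 67.0 CPM at 8 h of Pam3, below each untreated library (-0.40 ± 0.13, edgeR adjusted p = 0.00759), and it also fell with R837 at 6 and 8 h. Atf6 fell with R837 at 8 h alone (-0.24 ± 0.10, edgeR adjusted p = 0.0321) and with Pam3 at 6 and 8 h (-0.42 and -0.47).

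Among the regulators, Atf4 had 462, 472 and 505 CPM at 6 h of R837, against 197, 209 and 218 CPM in untreated WT libraries (1.21 ± 0.12, edgeR adjusted p = 1.65e-12). Ppp1r15a (GADD34), which directs the dephosphorylation of eIF2, had 64.2, 82.6 and 116 CPM at 8 h of R837 and 20.4, 22.5 and 25.2 CPM in untreated WT libraries (1.95 ± 0.26, edgeR adjusted p = 2.57e-08). In both genes the treated and untreated groups did not overlap, and the treated libraries of Ppp1r15a spread more widely. Its change at 2 h was 0.44 with R837 and 0.49 with Pam3 and did not pass. Ddit3 (CHOP), the factor that ATF4 is known to induce under lasting stress, passed as an increase at no time. It had 13.2, 14.4 and 23.1 CPM at 2 h of R837, against 34.5, 31.5 and 46.3 CPM in untreated WT libraries (-1.15 ± 0.24, edgeR adjusted p = 0.00013), and 4 of its 8 tests passed, all as decreases. Trib3, a pseudokinase that restrains ATF4 and CHOP, passed in none of the 8 tests, with changes of -0.54 to 0.56. Xbp1 split by ligand: it rose with R837 at 4, 6 and 8 h by 0.28, 0.43 and 0.24 on the log2 scale, and it fell by 0.26, 0.24 and 0.19 with Pam3 at 2, 6 and 8 h.

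The effectors Gdf15 and Chac1 had the largest log2 changes of all members in WT cells, from low starting levels. Gdf15, a secreted stress cytokine, was at 1.91, 4.38 and 4.26 CPM at 2 h of R837, against 1.70, 1.91 and 2.04 CPM in untreated WT libraries, which did not pass, and it passed from 4 h of R837 on with changes of 2.50 to 2.81. At 2 h of Pam3 it had 20.4, 11.7 and 47.2 CPM, above every untreated library (3.81 ± 0.52, edgeR adjusted p = 8.84e-08). Chac1, which degrades glutathione and is a known ATF4 target, had 5.62, 6.11 and 6.97 CPM at 4 h of Pam3 and 0.491, 0.863 and 0.235 CPM in untreated WT libraries (3.57 ± 0.55, edgeR adjusted p = 4.45e-07). Sesn2, which restrains mTORC1 signalling, instead fell in 5 of the 8 tests. It had 14.0, 19.2 and 16.7 CPM at 2 h of R837, against 33.8, 31.6 and 35.8 CPM in untreated WT libraries (-1.02 ± 0.17, edgeR adjusted p = 3.74e-06), and at 8 h of R837 it was at 31.9, 29.7 and 26.9 CPM, which did not pass.

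Of the 5 enzymes of amino acid and one-carbon metabolism, Mthfd2, Asns and Psat1 rose at 8 h of both ligands in WT cells and none fell. Mthfd2, the mitochondrial one-carbon enzyme, averaged 33.4 CPM in untreated WT libraries and had 39.9, 48.2 and 47.1 CPM at 2 h of R837, 105, 98.4 and 103 CPM at 4 h and 140.5, 149 and 154 CPM at 8 h. Each of these times passed, with 2.15 ± 0.12 at 8 h (edgeR adjusted p = 3.27e-20). Asns, asparagine synthetase, had 72.0, 71.7 and 80.9 CPM at 8 h of Pam3, against 24.2, 27.9 and 24.9 CPM in untreated WT libraries (1.55 ± 0.20, edgeR adjusted p = 1.24e-08), and its changes at 2 h were 0.18 with R837 and 0.08 with Pam3. Psat1, an enzyme of serine synthesis, rose in all 8 tests by 0.71 to 1.22. Shmt2, which passes serine carbon to the one-carbon pool in mitochondria, stayed between -0.29 and 0.22 and passed in none. Phgdh, the first enzyme of serine synthesis, passed at 6 h of Pam3 alone at under 5 CPM (1.59 ± 0.65, edgeR adjusted p = 0.0375).

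The 2 subunits of the large neutral amino acid transporter moved on different schedules. Slc7a5, the transporting subunit, had 38.2, 39.4 and 46.7 CPM at 4 h of Pam3 and 7.10, 9.68 and 9.60 CPM in untreated WT libraries (2.24 ± 0.25, edgeR adjusted p = 3.61e-10), and it was up by 1.36 to 2.24 at every time of both ligands. Slc3a2, the heavy chain that several transporters share, had 190.3, 225 and 249 CPM at 2 h of R837, below the 262, 267 and 280.4 CPM of untreated WT libraries (-0.29 ± 0.09, edgeR adjusted p = 0.0122). At 6 h of R837 it was at 588, 550.3 and 555 CPM, above all of them (1.06 ± 0.09, edgeR adjusted p = 1.84e-13). With Pam3 it rose at all 4 times.

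**Figure D2:**
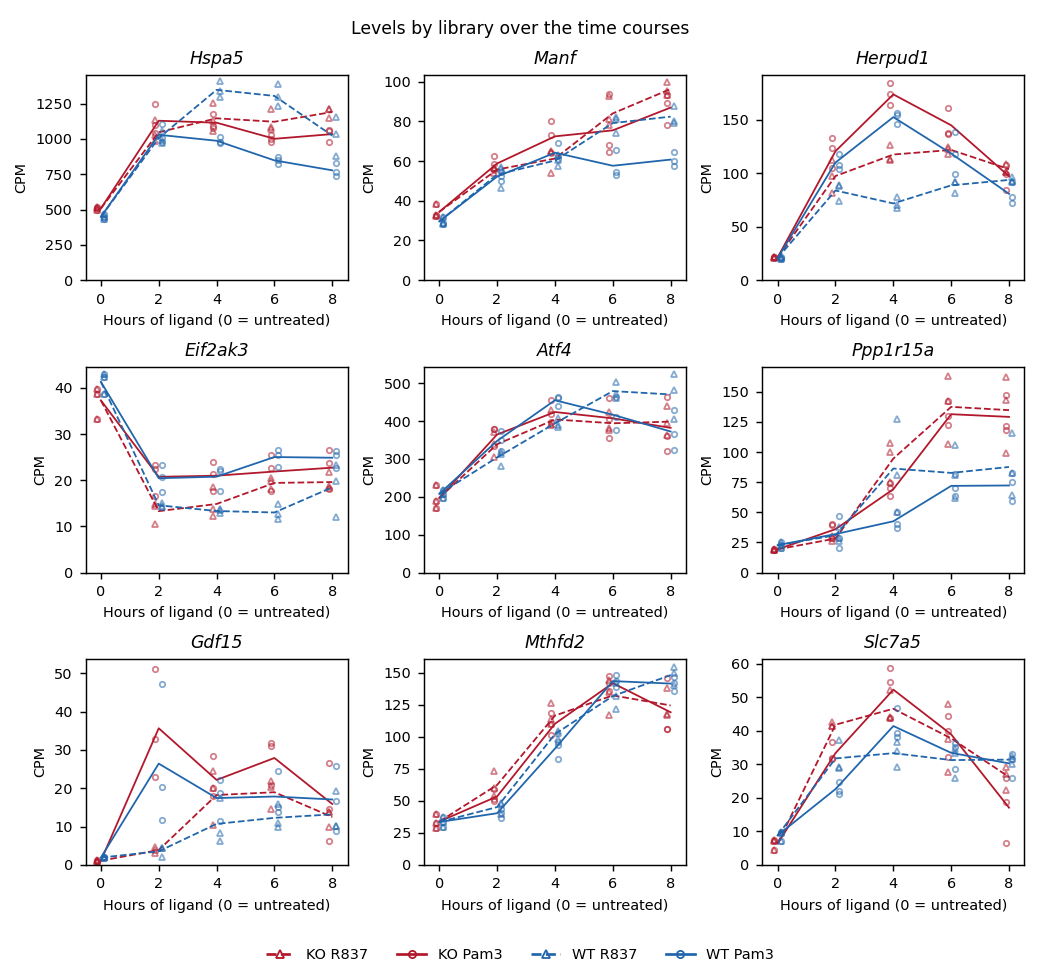
Level in CPM over hours of treatment for 9 members (Hspa5, Manf, Herpud1, Eif2ak3, Atf4, Ppp1r15a, Gdf15, Mthfd2, Slc7a5); points are single libraries, lines join group means, red is KO, blue is WT, triangles are R837 and circles are Pam3, with untreated cells at 0 h. Herpud1 and Slc7a5 are highest at 4 h of Pam3, Mthfd2 goes on rising to 6 or 8 h, and Eif2ak3 lies below its untreated level at every time.

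Direct comparison of the ligands in WT cells showed where the responses separated. At 2 h 3 members passed, where 4.78% of all genes did, and all 3 were lower with R837 (2.22% of all genes were). Gdf15 had 1.91, 4.38 and 4.26 CPM with R837 and 20.4, 11.7 and 47.2 CPM with Pam3 (-2.93 ± 0.50, edgeR adjusted p = 0.000102), and Slc3a2 and Herpud1 differed by -0.59 and -0.39. At 4 h 3 members were higher and 6 lower with R837 (21.9% of all genes passed, 10.4% higher and 11.5% lower). Xbp1 had 158, 157 and 147 CPM with R837 and 115, 111 and 113 CPM with Pam3 (0.44 ± 0.08, edgeR adjusted p = 2.93e-05), and Hspa5 and Ppp1r15a were the other two that were higher. Herpud1 (-1.09), Chac1 (-1.75), Trib3 (-0.89), Sesn2 (-0.88), Ddit3 (-0.80) and Eif2ak3 (-0.64) were lower. At 6 h 11 members were higher and 3 lower with R837 (22.7% of all genes, 12.2% higher and 10.5% lower), and at 8 h 10 were higher and none lower (11.5% of all genes, 7.16% higher and 4.37% lower). Those 10 were Hspa5, Hsp90b1, Dnajb11, Calr, Manf, Pdia3, Pdia4, Pdia6, Xbp1 and Atf4, with differences of 0.19 to 0.44 on the log2 scale. The count of 10 at 8 h fell to 3 when the spread was estimated from the compared libraries alone and to 6 without WT Pam3 8 h replicate 3 or WT R837 8 h replicate 2. With the Y-linked level of the WT libraries as a block, 8, 14, 22 and 14 members passed at 2, 4, 6 and 8 h. In that fit 2 were higher and 6 lower with R837 at 2 h, so not all were lower. At 4 h 4 were higher and 10 lower, and at 6 h 14 were higher and 8 lower.

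Without a ligand, KO and WT cells did not differ in any member by edgeR's test (0 of 36, while 0.882% of all genes passed, 0.514% higher and 0.367% lower). At an unadjusted p under 0.05 there were 5 members, Hspa5, Calr, Manf, Pdia3 and Pdia6, all with the higher value in KO cells, and limma called 0 and DESeq2 1 (Calr). At 2 h of Pam3 none passed either (1.43% of all genes, 0.655% higher and 0.775% lower). There 6 had an unadjusted p under 0.05, all with the higher value in KO cells, and limma called 0 and DESeq2 1 (Mthfd2). How many of all genes had an unadjusted p under 0.05, or passed with limma or DESeq2, was not counted. The counts of members at that cut or by those tests therefore only describe the members. The counts at later times stand beside shares of all genes that were also larger than at 2 h. With Pam3, KO cells were higher in 2 members and lower in 1 at 4 h, where 6.43% of all genes passed (3.33% higher and 3.09% lower). They were higher in 4 and lower in 1 at 6 h, where 7.99% of all genes passed (3.9% higher and 4.09% lower). By 8 h they were higher in 11 members and lower in 3, which is 38.9% of members, where 23.9% of all genes passed (11.4% higher and 12.4% lower). With R837, 2 members were higher and none lower at 2 h, where 2.69% of all genes passed (1.47% higher and 1.22% lower). The counts were 3 higher and 2 lower at 4 h (all genes 10.4%, with 3.88% higher and 6.57% lower) and 4 higher and 1 lower at 6 h (all genes 16.5%, with 6.76% higher and 9.7% lower). By 8 h 5 members were higher and 3 lower, which is 22.2% of members, where 15.9% of all genes passed (7.17% higher and 8.74% lower). Among the members called in none of the 8 stimulated conditions were Atf4, Ddit3, Chac1, Gdf15, Ern1 and Slc3a2. When the spread was estimated from the compared libraries alone, 4, 3, 4 and 2 members passed at 2, 4, 6 and 8 h of Pam3, so that the count at 8 h was not above that at 2 h. The 14 members at 8 h of Pam3 became 6 without the 9 WT libraries with middle Y-linked levels and 3 with only the WT libraries at the lowest Y-linked level, which leaves 1 WT library per condition. The 8 at 8 h of R837 became 5, 2 and 1 in the same 3 fits, in that order.

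**Figure D3:**
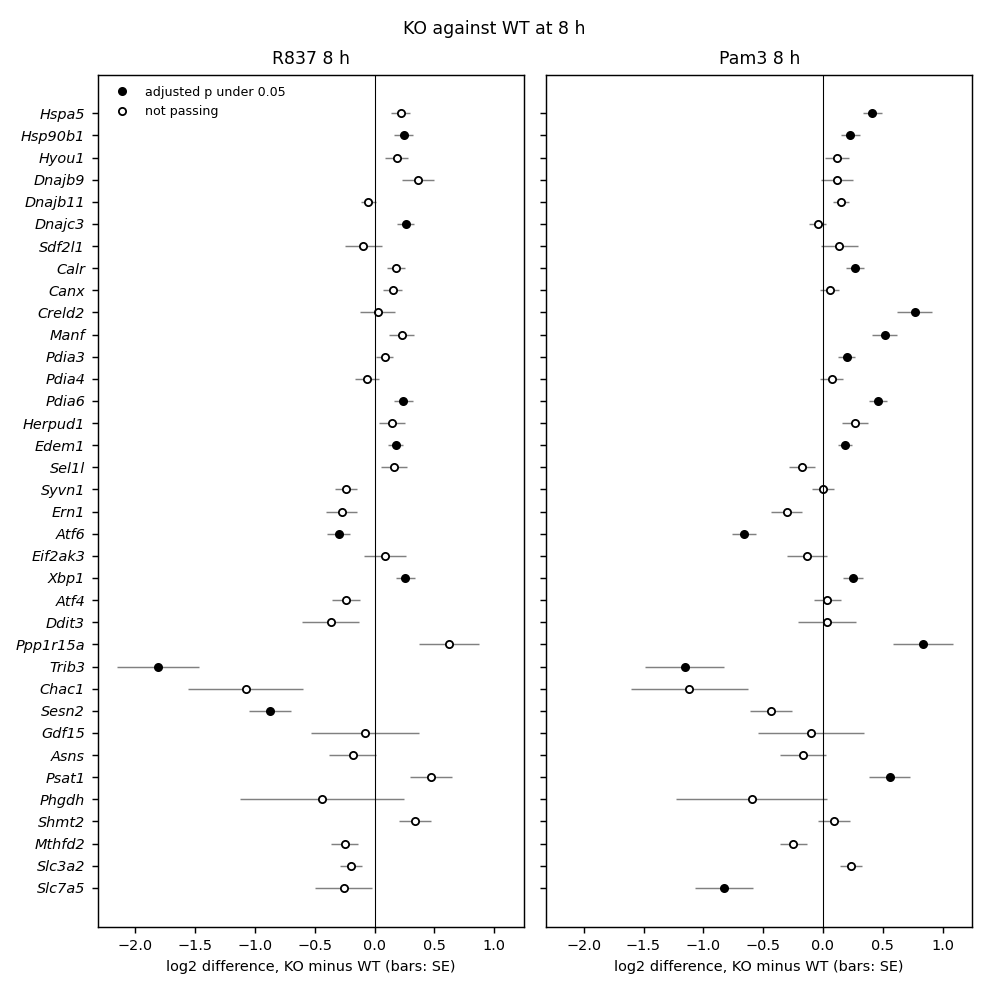
KO minus WT log2 difference of each of the 36 members at 8 h, R837 and Pam3 in panels on a shared horizontal axis; bars are SE and filled points mark tests that passed. Most chaperones and isomerases lie to the right of 0, while Trib3 lies farthest to the left with both ligands.

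At 8 h of Pam3, 5 of the 11 chaperones (Hspa5, Hsp90b1, Calr, Creld2 and Manf) and 2 of the 3 isomerases (Pdia3 and Pdia6) were higher in KO cells, and the other 6 chaperones and Pdia4 did not pass. Edem1, Xbp1, Ppp1r15a and Psat1 made up the rest of the 11. In the same comparison 1 of the 10 macrophage markers was higher and 6 were lower in KO cells, and they summed to 25426 to 27364 CPM in the KO cells, against 26707 to 30687 CPM in the WT cells. Of the 9 neutrophil markers tested 1 was higher and 3 lower, and the list summed to 80.9 to 137 CPM in the KO cells, against 108 to 161 CPM in the WT cells. Of the 10 stromal and endothelial markers 1 was higher and 3 lower, and they summed to 39.0 to 79.9 CPM in the KO cells, against 45.6 to 48.9 CPM in the WT cells. Of the 11 plasma cell markers tested 2 were higher and 1 lower. That list summed to 1120 to 1348 CPM in the KO cells, against 1041 to 1186 CPM in the WT cells. Igha had 56.0, 43.2 and 43.0 CPM in KO libraries and 12.4, 0.329 and 3.33 CPM in WT libraries. Jchain had 14.1, 12.6 and 14.4 CPM in KO libraries and 4.00, 0.576 and 0.957 CPM in WT libraries. The part of these marker differences in the result was not tested. Creld2 had 22.0, 20.7 and 33.8 CPM in KO libraries and 14.7, 14.9 and 15.4 CPM in WT libraries (0.77 ± 0.15, edgeR adjusted p = 0.000123). The KO library at 33.8 CPM is the one with counts in the fewest genes, and without it the difference was 0.51 (edgeR adjusted p = 0.00916). Hspa5 had 1066, 1056 and 979.5 CPM in KO libraries, against 764, 832 and 736 CPM in WT libraries (0.41 ± 0.08, edgeR adjusted p = 0.000135). Ppp1r15a had 118, 147 and 122 CPM in KO libraries and 82.2, 59.1 and 75.5 CPM in WT libraries (0.84 ± 0.25, edgeR adjusted p = 0.0126). No KO library overlapped a WT library in these 3 genes. Without the thinnest library 10 members were higher and 3 lower.

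At 8 h of R837 the members higher in KO cells were Hsp90b1, Dnajc3, Pdia6, Edem1 and Xbp1, each by 0.17 to 0.26 on the log2 scale. Dnajc3 had 131, 126 and 124 CPM in KO libraries and 106, 104 and 108 CPM in WT libraries (0.26 ± 0.07, edgeR adjusted p = 0.00627). Xbp1 had 171, 182 and 184 CPM in KO libraries and 134, 148 and 167 CPM in WT libraries (0.26 ± 0.08, edgeR adjusted p = 0.0214). At 4 h of R837 the order was the other way for Xbp1, with 119, 120.1 and 144 CPM in KO libraries and 158, 157 and 147 CPM in WT libraries (-0.27 ± 0.08, edgeR adjusted p = 0.0216). Hspa5 was also lower in KO cells at that time, with 1128, 1054 and 1255 CPM in KO libraries and 1406, 1336 and 1298 CPM in WT libraries (-0.23 ± 0.08, edgeR adjusted p = 0.0488).

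Atf6 and Shmt2 were the members called most often between genotypes, each in 5 of the 8 stimulated conditions. Atf6 was lower in KO cells at 4, 6 and 8 h of Pam3 and at 6 and 8 h of R837. It had 91.8, 71.7 and 96.8 CPM in KO libraries and 136, 132 and 143 CPM in WT libraries at 8 h of Pam3 (-0.66 ± 0.10, edgeR adjusted p = 2.14e-06). With R837 it had 128, 128 and 135 CPM in KO libraries at 8 h, against 149, 163 and 169 CPM in WT libraries (-0.30 ± 0.10, edgeR adjusted p = 0.0276). In both cases all KO libraries lay below all WT libraries. Shmt2 was higher in KO cells at 4 and 6 h of Pam3 and at 2, 4 and 6 h of R837. At 6 h of R837 it had 47.0, 55.6 and 54.7 CPM in KO libraries and 28.9, 37.0 and 31.2 CPM in WT libraries (0.69 ± 0.13, edgeR adjusted p = 8.68e-05). It did not pass at 8 h of either ligand.

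Known targets of ATF4 did not move one way between genotypes. Trib3 was lower in KO cells at 8 h of both ligands, Sesn2 passed as lower with R837 and Slc7a5 with Pam3, while Psat1 and Ppp1r15a were higher at 8 h of Pam3. Of 28 other ATF4 targets, KO cells were higher in 3 and lower in 2 at 8 h of R837 (all genes 7.17% and 8.74%). At 8 h of Pam3 KO cells were higher in 7 and lower in 4 (all genes 11.4% and 12.4%). All of these counts but the 7 lay near the shares of all genes. Trib3 had 2.10, 5.41 and 3.51 CPM in KO libraries at 8 h of R837, against 13.2, 11.8 and 13.8 CPM in WT libraries (-1.81 ± 0.34, edgeR adjusted p = 0.000124). At 8 h of Pam3 it had 2.56, 7.37 and 5.54 CPM in KO libraries and 13.4, 9.43 and 11.9 CPM in WT libraries (-1.16 ± 0.33, edgeR adjusted p = 0.00896). Sesn2 had 12.5, 17.9 and 17.7 CPM in KO libraries at 8 h of R837 and 31.9, 29.7 and 26.9 CPM in WT libraries (-0.88 ± 0.18, edgeR adjusted p = 0.000244). All KO libraries lay below all WT libraries in each of these comparisons. Slc7a5 had 18.9, 25.8 and 6.49 CPM in KO libraries at 8 h of Pam3 and 33.2, 25.9 and 31.7 CPM in WT libraries (-0.83 ± 0.24, edgeR adjusted p = 0.00979), and without the KO library at 6.49 CPM the difference was -0.44 and did not pass (edgeR adjusted p = 0.107). Atf4 itself had 322, 464 and 361 CPM in KO libraries and 429, 323 and 366 CPM in WT libraries at 8 h of Pam3, with overlapping groups.

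**Figure D4:**
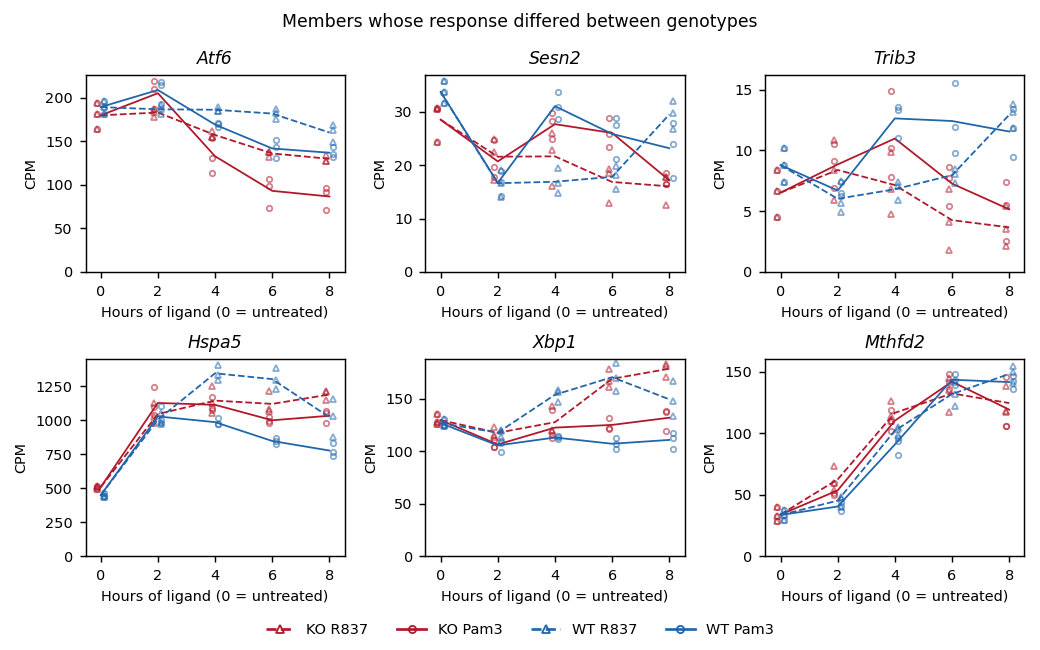
Level in CPM over hours of treatment for Atf6, Sesn2, Trib3, Hspa5, Xbp1 and Mthfd2; points are single libraries, lines join group means, red is KO, blue is WT, triangles are R837 and circles are Pam3. KO and WT lines of Trib3 and Sesn2 cross during R837 treatment, with KO libraries at 2.10 to 5.41 CPM and WT libraries at 11.8 to 13.8 CPM of Trib3 at 8 h.

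The response itself differed between genotypes, by an F-test over the 4 times, in 6 members for R837 (7.47% of all genes passed) and in 3 for Pam3 (4.64%). These counts were 1 and 0 without the 9 WT libraries with middle Y-linked levels and 0 and 0 with only the WT libraries at the lowest level. With R837 the KO response of Trib3 minus the WT response was 0.90 at 2 h, 0.50 at 4 h, -0.46 at 6 h and -1.38 at 8 h on the log2 scale (edgeR adjusted p = 0.00543). The differences of Sesn2 were 0.62, 0.60, 0.16 and -0.63 (edgeR adjusted p = 0.00125). Mthfd2 had 0.45, 0.17, -0.01 and -0.27 with R837 (edgeR adjusted p = 0.0244) and, with Pam3, 0.39, 0.26, -0.03 and -0.27 (edgeR adjusted p = 0.0464). For Slc7a5 with Pam3 the differences were 1.02, 0.79, 0.68 and -0.37 (edgeR adjusted p = 0.0225). In these 4 genes the KO response was the larger one at 2 h and the smaller one at 8 h, although the F-test does not test that order. For Slc7a5 the sign at 8 h rests on KO Pam3 8 h replicate 3, since without that library the difference was 0.02 at 8 h, with 1.02, 0.79 and 0.68 at the earlier times (edgeR adjusted p = 0.0109). Without it Mthfd2 differed by -0.19 at 8 h of Pam3 and no longer passed for that ligand (edgeR adjusted p = 0.117).

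Other members differed in another way. The KO response of Hspa5 to R837 was smaller by 0.41 and 0.40 at 4 and 6 h and differed by -0.12 at 2 h and 0.04 at 8 h (edgeR adjusted p = 0.00376). At 6 h of R837 Hspa5 had 1215, 1067 and 1081 CPM in KO libraries and 1385, 1231 and 1295 CPM in WT libraries. Herpud1 responded more in KO cells, by 0.67 at 4 h and 0.42 at 6 h of R837 (edgeR adjusted p = 0.00966 over the 4 times). It had 113, 127 and 113 CPM in KO libraries at 4 h of R837, against 78.1, 70.0 and 67.1 CPM in WT libraries, with no overlap. Xbp1 differed by -0.30 at 4 h and 0.23 at 8 h of R837 (edgeR adjusted p = 0.0231). For Pam3 the smallest p was that of Atf6, whose KO response was lower by 0.27 at 4 h, 0.53 at 6 h and 0.59 at 8 h on the log2 scale and differed by 0.05 at 2 h (edgeR adjusted p = 0.00172).

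Among KO cells the members answered the ligands in similar numbers as in WT cells, each set against its own untreated group. With Pam3 20, 27, 29 and 26 members passed at 2, 4, 6 and 8 h in KO cells (39.8%, 52.5%, 57% and 61.5% of all genes), and with R837 18, 27, 30 and 30 passed (43.4%, 52.9%, 59% and 61%). At the last time 22 rose and 8 fell with R837 (29.6% and 31.4% of all genes) and 19 rose and 7 fell with Pam3 (29.6% and 31.9%). In KO cells 14 members rose at all 4 times of Pam3 and 14 at all 4 times of R837, and in WT cells 13 and 10 did. That pattern was not counted over all genes, and the 4 times share an untreated group, so these counts only describe the members. Within WT cells 21 members differed between 8 h and 2 h of R837 (45.4% of all genes) and 19 between 8 h and 2 h of Pam3 (48%). Of these 18 were higher and 3 lower at 8 h of R837 (22.3% and 23.2% of all genes), and 11 were higher and 8 lower at 8 h of Pam3 (23.6% and 24.4%).

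Genes around the pathway were counted from lists of their own, in WT cells at 8 h. There 28.3% of all genes rose and 29.1% fell with R837, and 26.3% rose and 25.9% fell with Pam3. All of these lists, with the other ATF4 targets above, were chosen with earlier results of these data known, so their counts only describe them. Of 19 genes of ER translocation 12 rose and none fell with R837, and 14 rose and 1 fell with Pam3. Srpr, a subunit of the receptor for the signal recognition particle, rose by 0.83 and 0.67 on the log2 scale with R837 and Pam3, and Ssr3, of the translocon-associated complex, by 0.99 and 0.71. Of 19 aminoacyl-tRNA synthetases 11 rose and 4 fell with R837 and 14 rose and 2 fell with Pam3, among them Aars (0.87 and 0.88) and Wars (1.01 and 0.46). Among 13 genes of the eIF2 machinery 7 rose and 3 fell with R837 and 9 rose and 2 fell with Pam3. Ppp1r15b, the constitutive counterpart of Ppp1r15a, rose by 1.59 and 1.08, and Eif2s1, which encodes the phosphorylated subunit of eIF2, rose by 1.17 and 1.02.

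The remaining lists were more mixed, and some of their counts lay near those shares of all genes, among them the ATF4 targets that rose with Pam3 and the degradation genes that fell. Of 28 other ATF4 target genes 11 rose and 5 fell with R837 and 9 rose and 5 fell with Pam3, and 12 and 14 did not pass. Slc7a11, the cystine transporter, averaged 112 CPM at 8 h of R837 and 185 CPM at 8 h of Pam3, against 2.02 CPM in untreated WT libraries (5.79 ± 0.29 and 6.52 ± 0.29, edgeR adjusted p = 6.74e-21 and 3.32e-22). Nupr1, a stress-induced chromatin protein, rose by 3.92 and 3.22 with R837 and Pam3. Of 20 other folding and disulfide genes 8 rose and 4 fell with R837 and 9 rose and 3 fell with Pam3, and the 2 oxidases that recharge the disulfide isomerases moved apart. Ero1l rose by 2.07 and 1.76 and Ero1lb fell by 1.22 and 1.07 on the log2 scale. Of 16 other degradation genes 8 rose and 5 fell with each ligand, and of 16 other regulators of the unfolded protein response 7 rose and 5 fell with R837 and 8 rose and 5 fell with Pam3. Between genotypes, 7 of the 28 other ATF4 targets had a response that differed for R837 (7.47% of all genes) and 7 for Pam3 (4.64%).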

How the data were processed

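Gene expression was measured in 54 libraries, and their 18 groups follow the labels' genotype, ligand and time. Per the labels, the library kit was TruSeq RNA v2, which does not mark strand, and reads were single-end of 50 bp. The submitters' processing notes name GSNAP and GRCm38 without versions or settings. The authors deposited, per library, whole-number counts of reads over exons per Ensembl gene, not normalized, with exon widths, and the deposited RPKM values were not used. Symbols and locations were taken from the GENCODE M21 annotation of GRCm38, with 52403 of 52636 identifiers named, and the unnamed ones took up to 0.0245% of the counts in a library. On that annotation 11 members share exon bases with another gene, 4 of them (Hsp90b1, Eif2ak3, Manf and Ddit3) over more than 100 bases, and their reads cannot be told apart from those of the overlapping genes.

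Counts were filtered with edgeR's filterByExpr (minimum count 10, minimum total 15), scaled with TMM factors of 0.83 to 1.28, and fitted with edgeR 4.0.16 (robust quasi-likelihood, R 4.3.3) in 1 model with a coefficient per group, which estimates the spread from all groups together. Benjamini-Hochberg adjustment over the 14970 genes was applied within each comparison at 0.05. Each SE is the absolute log2 change over the square root of its F statistic. KO was compared with WT in each of 9 conditions, each stimulated group with the untreated group of its genotype, R837 with Pam3 in WT cells, 8 h with 2 h in WT cells, and the KO response minus the WT response over the 4 times by an F-test. Comparisons within a ligand course share their untreated libraries. Alternatives used RLE scaling, other filters, DESeq2 1.42.0, limma 3.58.1, smaller fits, a replicate block and fits without single libraries or replicate numbers, and 4 more, on Y-linked levels and on the libraries with fewest genes, were chosen after seeing the data. The pipeline was tested on simulated data.

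Depth sets the precision of the low members, and counts of 3 replicates cover the spread between mice of these groups alone. Libraries of a group differed by 6.62 to 89.6 in chi-square per degree of freedom, so none was a copy of another. The members and the gene lists were chosen with earlier results of these data known. Values in single libraries are given for the 2 members of each role group with the largest called change in WT cells and a mean of at least 5 CPM, for the 5 members with the smallest called interaction p per ligand, and for the 5 largest called genotype differences at 8 h of each ligand, and other values given per library (among them Ddit3, Shmt2 and the second time points) were chosen after they were seen. Of each gene list up to 4 genes could be named. Promoter letters come from RefSeq windows of GRCm38.p6.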

Additional observations from a re-analysis of the deposited data

Results flagged for a closer look

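In 9 cases a member's response to a ligand differed between KO and WT cells by a test of the difference itself, edgeR's F-test of the KO response minus the WT response over the 4 times. For R837 these were Sesn2 (edgeR adjusted p = 0.00125), Hspa5 (edgeR adjusted p = 0.00376), Trib3 (edgeR adjusted p = 0.00543), Herpud1 (edgeR adjusted p = 0.00966), Xbp1 (edgeR adjusted p = 0.0231) and Mthfd2 (edgeR adjusted p = 0.0244). For Pam3 they were Atf6 (edgeR adjusted p = 0.00172), Slc7a5 (edgeR adjusted p = 0.0225) and Mthfd2 (edgeR adjusted p = 0.0464). The differences at each time are given with the comparison of responses above.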

How the results depend on the processing

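Over 71 settings, the 34 gene results and 33 counts of called members were recomputed. Of the gene results, 26 have 1 log2 change, and none of these changed sign in an alternative. The other 8 are F-tests over 4 times, for which only the call was compared. The flagged response of Mthfd2 to R837 was not among these gene results, so its dependence on the settings is not given. Of 866 alternatives for single genes 750 kept the call and 116 lost it, and of 664 for counts 559 stayed within 1.5 times the reported count. Counts of members called against untreated cells, and at 8 h against 2 h, stayed within that range in each alternative run. Unless a smaller number of libraries is named, the cause of a change was not tested.

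The counts that moved were those between genotypes and between ligands. With no filter on low counts, KO against WT gave 1 member untreated (Gdf15), 4 at 2 h of Pam3 (Chac1, Asns, Mthfd2 and Slc7a5), 6 and 8 at 4 and 6 h of Pam3 and 8 and 5 at 6 and 8 h of R837, R837 against Pam3 in WT cells gave 5 at 2 h, and the responses differed in 10 members for R837 and 8 for Pam3. DESeq2 gave 1 untreated, 1 and 5 at 2 and 4 h of Pam3 and 9 at 6 h of R837, where limma and a minimum count of 50 each gave 8. With the spread of the compared libraries alone, KO against WT gave 5 at 8 h of R837, 4 at 2 h of Pam3 (Chac1, Asns, Mthfd2 and Slc7a5) and 2 at 8 h of Pam3, R837 against Pam3 gave 3 at 8 h, and the response to R837 differed in 11.

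The other alternatives were chosen after seeing the data. Without the 9 WT libraries with middle Y-linked levels, KO against WT gave 0, 2, 3 and 2 at 2, 4, 6 and 8 h of R837 and 1, 3 and 6 at 4, 6 and 8 h of Pam3, R837 against Pam3 gave 9 and 2 at 6 and 8 h, and the responses differed in 1 member for R837 and 0 for Pam3. With only the WT libraries at the lowest Y-linked level, KO against WT gave 0, 1, 2 and 1 at 2, 4, 6 and 8 h of R837, 0, 1 and 3 at 4, 6 and 8 h of Pam3, and 0 differing responses for either ligand. These fits use fewer libraries, down to 1 WT library per condition, which is assumed to vary like the other groups. With the Y-linked level as a block, R837 against Pam3 gave 8, 14 and 22 at 2, 4 and 6 h. Without the KO Pam3 6 h and 8 h libraries with fewest genes, 2 members passed at 6 h of Pam3.

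With single libraries or replicate numbers left out, KO against WT gave 0 to 2, 2 to 6, 3 to 8 and 2 to 10 members at 2, 4, 6 and 8 h of R837 and 0 to 6, 2 to 6 and 7 to 16 at 4, 6 and 8 h of Pam3. R837 against Pam3 gave 5 to 9, 8 to 12 and 1 to 11 at 4, 6 and 8 h, and the responses differed in 1 to 7 members for R837 and 0 to 6 for Pam3. At 8 h of Pam3 the count was 9 without WT replicate 1 or WT replicate 3. At 8 h of R837 it was 4 and 3 without WT replicates 1 and 2 and 5 without KO replicate 2. At 6 h of Pam3 it was 2 without KO replicate 3 or WT replicate 2 and 3 without WT replicate 3, and at 4 h of R837 it was 3, 2, 3 and 3 without KO replicates 1 and 2 and WT replicates 1 and 2. At 4 h of Pam3 it was 0, 1 and 5 without KO replicates 1, 2 and 3 and 1 without WT replicate 1 or 3. At 2 h of R837 it was 1, 0 and 1 without KO replicates 1, 2 and 3 and 0 and 1 without WT replicates 1 and 3. The count of responses that differed for Pam3 was 6 without KO Pam3 8 h replicate 2 and 1 without WT Pam3 8 h replicate 3, and R837 against Pam3 gave 9 at 6 h without WT Pam3 6 h replicate 1.

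Replicate numbers were not taken to pair the samples, since the labels do not say which cultures share a mouse. The deviations of libraries of 1 number and genotype had correlations of -0.26 to 0.32. Of these 70 of 216 were over 0.1, against 62 of 432 for different numbers (medians 0.059 and -0.026). Partial pairing by number is thus possible, and a replicate block was run as an alternative. In WT cells the numbers did not follow the Y-linked level across conditions. The replicate block and the fits without a WT replicate number in every condition therefore mix libraries of different levels. Each of the 9 WT conditions held 1 library at each level, so WT cultures may share a source by that level. The main tests leave such a pairing out. With that level as a block, R837 against Pam3 gave 8, 14 and 22 members at 2, 4 and 6 h, against 3, 9 and 14. With the replicate block, 1 member (Mthfd2) passed between KO and WT at 2 h of Pam3 and 5 responses differed for Pam3, and no other count moved by over 1.5 times. Among the named genotype differences, Xbp1 and Atf6 at 8 h of R837 lost their call in 11 and 10 of 21 alternatives, and the Mthfd2 interaction for Pam3 in 28 of 46, while Trib3 at 8 h of R837 and Atf6 at 8 h of Pam3 kept it in all 21 and 22. Depth limits Phgdh, Chac1, Trib3 and untreated Gdf15, which rest on few counts.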
